A study of Mus musculus with 18 samples.

Results

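The Fc gamma receptor genes of the mouse were followed in macrophages that were heterozygous or homozygous for the loss of Wbp7. The members were chosen by name: Fcgr1, Fcgr2b, Fcgr3 and Fcgr4, which encode the 4 receptors for IgG of mouse leukocytes, and Fcer1g, which encodes the signalling chain that the activating receptors share. They are 5 of the 19475 genes measured, and each was read by a single probe set of the array.

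Macrophages were grown from bone marrow in L929-conditioned medium and taken on day 7, from Wbp7 mutant mice with mixed C57BL/6 and 129/Ola ancestry. The mice were Wbp7+/- (HET) or Wbp7-/- (KO). Wbp7 is now named Kmt2b, and its product methylates histone H3 at lysine 4. Each genotype was left untreated or was treated for 2 h or 4 h with lipopolysaccharide (LPS, 10 ug/ml), the endotoxin of bacterial walls that Tlr4 recognises, which gave 6 groups of 3 Affymetrix arrays. The HET arrays served as the controls, so no wild-type cells enter any comparison. The labels do not say how the alleles were deleted or whether arrays came from separate mice. P-values therefore measure the spread between these arrays, which may in part be technical.

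Fc gamma receptors bind the constant part of IgG and let a macrophage take up and respond to antibody-coated particles. The activating receptors Fcgr1, Fcgr3 and Fcgr4 signal through the ITAM of the Fcer1g chain, which recruits the kinase Syk, whereas Fcgr2b carries an ITIM in its own tail and recruits the lipid phosphatase Inpp5d (SHIP1). The balance of activating and inhibitory receptors on a cell sets how readily bound antibody triggers it.

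In outline, LPS raised Fcgr2b by 2 h and Fcgr1 and Fcgr4 between 2 h and 4 h in both genotypes, while no change passed for Fcgr3 or Fcer1g. The Fcgr2b call at 2 h in KO and the Fcgr4 steps from 2 h to 4 h were lost without some single arrays. No member passed the test between the genotypes. Fcgr4 was the only member whose 3 KO arrays all lay below the 3 HET arrays at every time, as was the case for 1.31% of all genes. In untreated cells the nearest Fcgr4 arrays stood at 10.71 in KO and 10.73 in HET. Levels are log2 probe set values. Each change is a difference of group means on that scale, with n = 3 arrays in a group, and is followed by its standard error (SE) from a single limma model. The words rose and fell are kept for genes with a Benjamini-Hochberg adjusted p, computed over the whole set of 19475, below 0.05.

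The promoters of 3 receptor genes are shown because these genes rose after LPS, Fcgr2b by 2 h and the others later. Each sequence holds the 250 bases before the RefSeq start on GRCm38.p6, 5′ to 3′ on the gene's strand, and capitals mark matches to the GAS letters TTCNNNGAA, read by STAT factors, and to the PU.1 core GAGGAA, either strand. Fcgr1 lies at chr3:96293970-96294219 on the minus strand, Fcgr4 at chr1:171018676-171018925 on the plus strand and Fcgr2b at chr1:170976072-170976321 on the minus strand.
Fcgr1: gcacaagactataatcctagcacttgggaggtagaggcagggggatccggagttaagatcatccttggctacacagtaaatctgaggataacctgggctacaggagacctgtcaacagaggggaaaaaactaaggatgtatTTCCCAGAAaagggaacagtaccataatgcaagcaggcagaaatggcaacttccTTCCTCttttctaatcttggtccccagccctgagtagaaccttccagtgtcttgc
Fcgr4: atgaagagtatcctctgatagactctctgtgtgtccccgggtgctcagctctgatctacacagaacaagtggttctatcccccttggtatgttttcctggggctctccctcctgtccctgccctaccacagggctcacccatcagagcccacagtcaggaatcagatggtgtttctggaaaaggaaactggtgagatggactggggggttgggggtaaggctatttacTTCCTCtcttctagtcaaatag
Fcgr2b: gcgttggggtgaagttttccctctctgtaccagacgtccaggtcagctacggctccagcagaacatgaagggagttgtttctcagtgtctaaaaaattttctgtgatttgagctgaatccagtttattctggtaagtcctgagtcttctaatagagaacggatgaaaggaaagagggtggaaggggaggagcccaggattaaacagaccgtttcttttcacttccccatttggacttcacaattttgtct

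The Fcgr1 window held the GAS match TTCCCAGAA at 109 to 101 bases before the start and a PU.1 core at 55 to 50. The Fcgr4 window held a PU.1 core at 22 to 17 bases before the start, a match to the letters of the ISRE-like motif (GAAA, any 2 bases, GAAA) at 73 to 64 and an NF-kB match at 152 to 143. None of the 6 motifs searched (these 4, AP-1 as TGANTCA and C/EBP as TTGCNNAA) was found in the Fcgr2b window or in that of Fcer1g, and the Fcgr3 window held a PU.1 core, an NF-kB match and a C/EBP match. Among 32851 promoter windows of RefSeq, 7.02% held the GAS letters, 23.3% the PU.1 core, 2.98% the ISRE-like motif, 7.25% the NF-kB motif, 6.75% AP-1 and 9.56% C/EBP. The PU.1 core is shared by other factors of the ETS family. In the RefSeq gene order of chromosome 1, Fcgr2b, Fcgr4 and Fcgr3 stand next to each other with no other protein-coding gene between them. Fcer1g lies farther along the same chromosome, and Fcgr1 lies on chromosome 3.

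The cells carried the macrophage markers that their label implies. Csf1r, Adgre1, Cd68 and Lyz2 each stood above the 99th percentile of the genes on the arrays on average. The lowest of the list were Mertk at the 82.7th and Marco at the 48.5th. The median of the 10 macrophage markers lay between 12.86 and 13.60 on every array. Of the markers of other cells, 4 of 5 of B cells and 7 of 8 of mast cells and basophils had a mean below the 40th percentile. The exceptions in these lists were Cd79b, at the 66.9th, and Hdc, which makes histamine, at the 64.4th. Below the 40th percentile were also 7 of 8 markers of T and NK cells and 2 of 2 of erythroid cells. Fewer were below it for dendritic cells (4 of 7) and stromal cells (2 of 6). The highest of those lists were Ccr7 at the 53.2nd and Col1a1 at the 62.9th. Hdc rose after 4 h of LPS by 3.74 in HET and 2.88 in KO (adjusted p = 2.95e-06 and 7.04e-05). Array medians ran from 8.05 to 8.13, and with arrays it is their number that bounds the precision. The targeted gene's probe set ranged from 10.05 to 10.97 on the 9 HET arrays and from 9.94 to 10.73 on the 9 KO arrays, with no difference past the test at any time. Where its probes lie relative to the deleted part is not known here, so this value does not check the labels. The HET arrays numbered 1 stood apart at all 3 times: the median of 19 cell cycle genes differed there from the other HET arrays by -3.30, -3.14 and -2.55 in untreated, 2 h and 4 h cells. On the same arrays the 4 receptor genes were the highest of their group at every time, above the mean of the other HET arrays by 0.30 to 1.05. Differences of the members between the genotypes, and calls of other genes that these arrays change, are therefore given also without them.

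Fcgr2b, the inhibitory receptor, responded first. It measured 12.10, 11.81 and 11.80 on the untreated HET arrays, 13.59, 12.87 and 12.99 at 2 h, and 13.81, 13.42 and 13.18 at 4 h. In KO cells it measured 12.20, 11.87 and 12.01 untreated, 12.94, 12.71 and 12.83 at 2 h, and 13.36, 13.04 and 13.32 at 4 h. Every LPS array of either genotype lay above every untreated array, and the arrays of 2 h and 4 h overlapped in HET but not in KO. At 2 h it rose by 1.24 ± 0.183 (2.36-fold, adjusted p = 0.000229) in HET and by 0.80 ± 0.183 (1.74-fold, adjusted p = 0.022) in KO. It was the only member of the 5 to pass at 2 h in either genotype, where 5.56% of all genes rose in HET and 2% in KO. The call in KO was lost on leaving out 1 of 4 single arrays, KO 2 h replicate 1 or 3 or KO untreated replicate 2 or 3, with adjusted p between 0.0799 and 0.113. With a block for arrays of the same genotype and number its adjusted p in KO was 6.22e-05.

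At 4 h Fcgr2b stood 1.56 ± 0.183 above untreated cells in HET (2.95-fold, adjusted p = 1.06e-05) and 1.21 ± 0.183 in KO (2.32-fold, adjusted p = 0.000237). The rise was present in each of the 3 replicate numbers, at 1.70, 1.60 and 1.38 in HET and 1.16, 1.17 and 1.31 in KO. From 2 h to 4 h it differed by 0.32 in HET (adjusted p = 0.369) and 0.42 in KO (adjusted p = 0.312). With the block for genotype and number these steps passed, at adjusted p = 0.0224 and 0.00832. Ordered by mean level, untreated HET and untreated KO came lowest and overlapped, then came KO at 2 h, HET at 2 h, KO at 4 h and HET at 4 h, each overlapping the next.

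**Figure D1:**
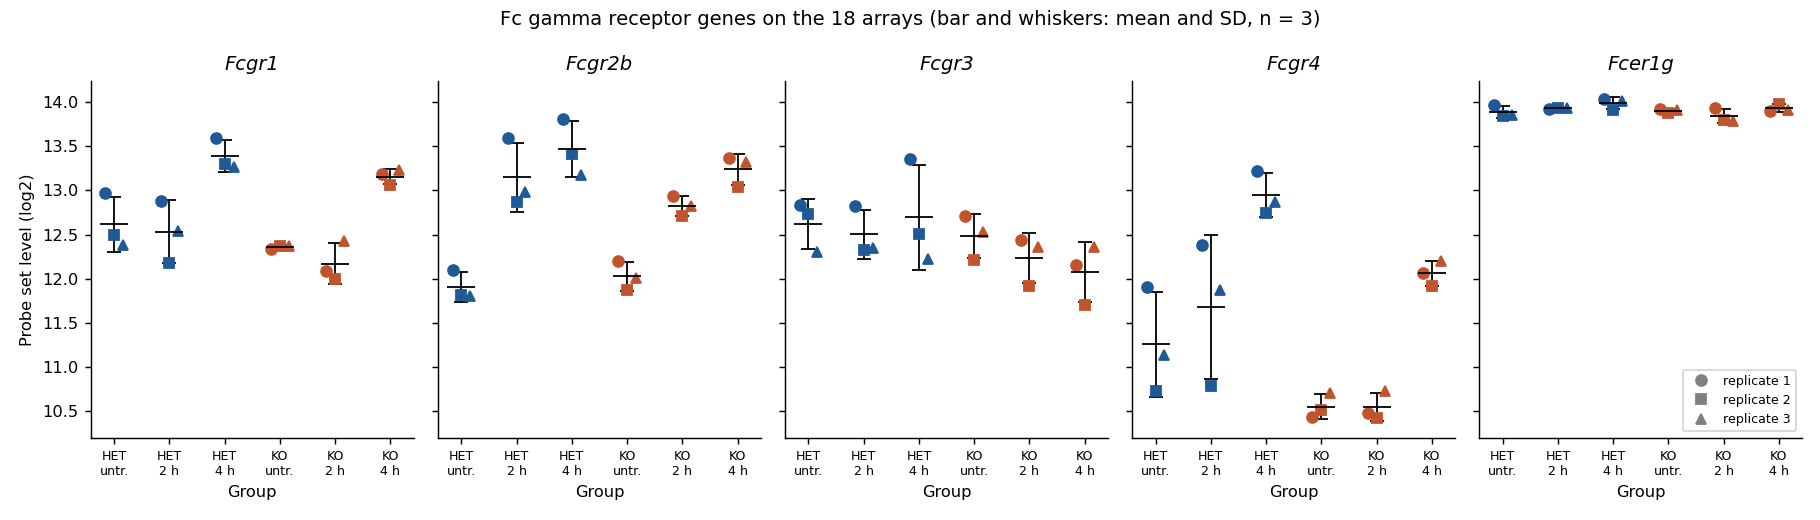
Log2 probe set levels of the 5 genes (one panel each) on every array, by genotype (blue HET, orange KO) and time of LPS, with the replicate number as the symbol and the mean and SD of each group in black. The Fcgr2b arrays rise at 2 h, those of Fcgr1 and, in KO, of Fcgr4 only at 4 h, and the Fcer1g arrays all lie between 13.78 and 14.04.

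Fcgr4, the activating receptor for IgG2a and IgG2b, rose late, and its HET arrays spread widely in untreated cells and at 2 h (SD 0.594 and 0.816). It measured 11.90, 10.73 and 11.14 on the untreated HET arrays, 12.38, 10.78 and 11.87 at 2 h, and 13.22, 12.74 and 12.87 at 4 h. In KO cells it measured 10.44, 10.51 and 10.71 untreated, 10.49, 10.43 and 10.73 at 2 h, and 12.07, 11.92 and 12.20 at 4 h. The KO arrays of untreated cells and of 2 h covered the same range, and all 4 h arrays of a genotype lay above its earlier ones. The change at 2 h was 0.42 ± 0.322 in HET (adjusted p = 0.453) and -0.0046 ± 0.322 in KO (adjusted p = 0.998). At 4 h it rose by 1.69 ± 0.322 in HET (3.23-fold, adjusted p = 0.000779) and by 1.51 ± 0.322 in KO (2.85-fold, adjusted p = 0.00397).

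Without HET 2 h replicate 2, the lowest Fcgr4 array of its group, the 2 h change in HET was 0.87 and passed (adjusted p = 0.0344). Between 2 h and 4 h Fcgr4 rose by 1.27 ± 0.322 in HET (adjusted p = 0.023) and by 1.51 ± 0.322 in KO (adjusted p = 0.0116). The HET step did not pass without HET 4 h replicate 1 (adjusted p = 0.0989) or HET 2 h replicate 2 (adjusted p = 0.109). The KO step lay just past the threshold, at adjusted p between 0.0506 and 0.0619, without 1 of 4 single KO arrays (2 h replicate 1 or 2, 4 h replicate 1 or 3).

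Fcgr1, the high-affinity receptor known to be induced by interferon gamma, also rose between 2 h and 4 h. It measured 12.97, 12.49 and 12.38 on the untreated HET arrays, 12.88, 12.17 and 12.54 at 2 h, and 13.59, 13.30 and 13.26 at 4 h. In KO cells it measured 12.34, 12.37 and 12.37 untreated, 12.09, 11.9995 and 12.43 at 2 h, and 13.19, 13.06 and 13.23 at 4 h. The untreated and 2 h arrays overlapped in both genotypes, and the 4 h arrays lay above them all. The change at 2 h was -0.08 in HET (adjusted p = 0.804) and -0.19 in KO (adjusted p = 0.769), with an SE of 0.175. At 4 h it rose by 0.77 ± 0.175 in HET (1.71-fold, adjusted p = 0.00295) and 0.80 ± 0.175 in KO (1.74-fold, adjusted p = 0.00491). The rise from 2 h to 4 h was 0.85 in HET (adjusted p = 0.00644) and 0.99 in KO (adjusted p = 0.00352).

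At 4 h, then, 3 of the 5 genes rose in HET and the same 3 (Fcgr1, Fcgr2b and Fcgr4) rose in KO, against 15.7% of all genes in HET and 6.48% in KO. From 2 h to 4 h 2 of 5 rose in each genotype, against 3.8% and 2.69% of all genes. With only the 6 arrays of the contrast, neither passed in HET (adjusted p = 0.129 for Fcgr1 and 0.238 for Fcgr4). The median change of the 5 members at 4 h was 0.77 in HET and 0.80 in KO, beside 0.09 and 0.02 over all genes. In bulk RNA, fewer cells that carry a transcript and less transcript per cell cannot be told apart.

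**Figure D2:**
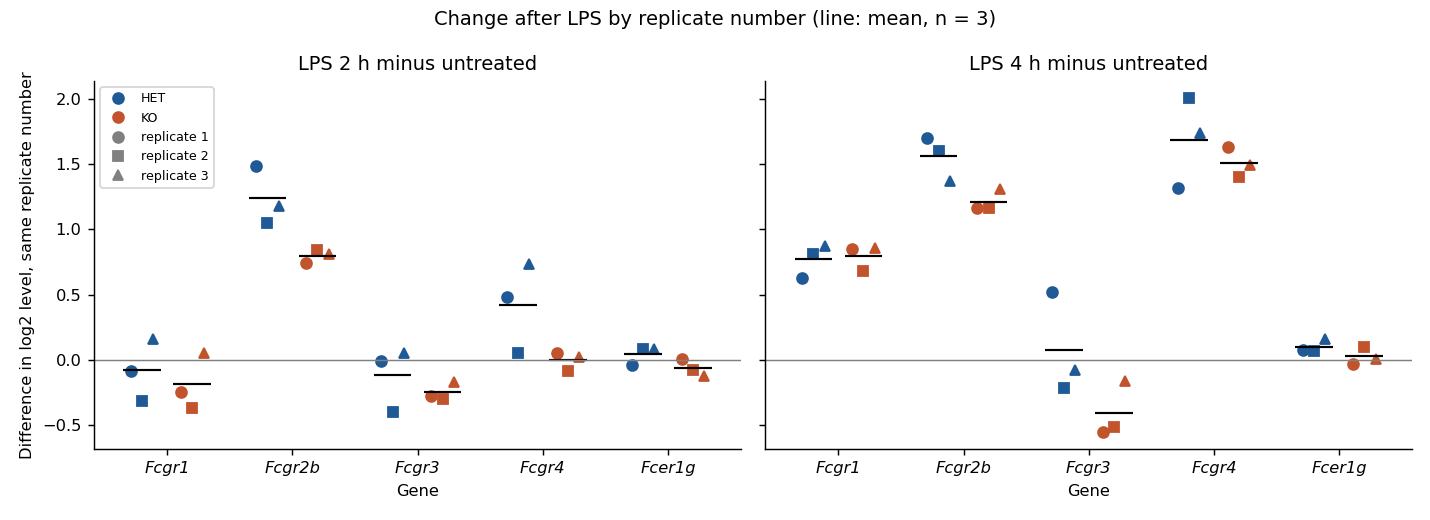
Log2 change after LPS at 2 h (left) and 4 h (right) against the untreated array of the same genotype and number, for the 5 genes, with HET in blue, KO in orange and the mean of the 3 as a line. Fcgr2b lies at 0.74 or above in every replicate number at 2 h, and at 4 h Fcgr1 spans 0.63 to 0.88 and Fcgr4 1.32 to 2.01.

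Fcgr3, the low-affinity activating receptor, did not pass in any comparison of the fit. It measured 12.84, 12.73 and 12.30 on the untreated HET arrays, 12.83, 12.33 and 12.35 at 2 h, and 13.36, 12.51 and 12.22 at 4 h. In KO cells it measured 12.72, 12.22 and 12.53 untreated, 12.44, 11.92 and 12.35 at 2 h, and 12.16, 11.70 and 12.36 at 4 h. All 6 groups overlapped with their neighbours in the order of means. The 4 h change was 0.07 ± 0.265 in HET (adjusted p = 0.827), where replicate 1 changed by 0.52 and the others by -0.22 and -0.08. In KO it was -0.41 ± 0.265 (adjusted p = 0.362), with -0.55, -0.52 and -0.16 by replicate number, and with the block for genotype and number its adjusted p was 0.0309. Without HET replicate 1 at all times the HET change at 4 h was -0.15 (adjusted p = 0.628). The 95% intervals of the 4 h change, -0.49 to 0.64 in HET and -0.98 to 0.15 in KO, both included 0.

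The Fcer1g chain, which Fcgr1, Fcgr3 and Fcgr4 need for signalling, was at a like level on every array. It measured 13.96, 13.85 and 13.85 on the untreated HET arrays, 13.92, 13.93 and 13.94 at 2 h, and 14.04, 13.91 and 14.01 at 4 h. In KO cells it measured 13.93, 13.88 and 13.91 untreated, 13.93, 13.80 and 13.78 at 2 h, and 13.90, 13.98 and 13.91 at 4 h. Each group overlapped its neighbours in the order of means. Its 4 h change was 0.10 ± 0.0668 in HET (95% interval -0.04 to 0.24) and 0.03 ± 0.0668 in KO (-0.12 to 0.17). It stood between the 99.6th and 99.9th percentile of each array, and the highest level of any gene was between 14.51 and 14.69. Whether such bright probes respond less than in proportion was not tested.

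Between the genotypes, none of the 5 members passed in untreated cells, at 2 h or at 4 h, where 0.416%, 2.76% and 2.42% of all genes were called. Fcgr4 differed most, with KO minus HET at -0.70 ± 0.322 in untreated cells (1.63-fold lower, adjusted p = 1), -1.13 ± 0.322 at 2 h (2.19-fold lower, adjusted p = 0.0788) and -0.88 ± 0.322 at 4 h (1.85-fold lower, adjusted p = 0.15). Its highest KO array lay below its lowest HET array at all 3 times. They stood at 10.71 against 10.73 in untreated cells, 10.73 against 10.78 at 2 h, and 12.20 against 12.74 at 4 h. Of all genes, 5.27%, 7.86% and 13.8% were lower in KO without overlap in untreated cells, at 2 h and at 4 h, and 1.31% (255) at all 3 times. With the block for genotype and number the 2 h difference passed (adjusted p = 0.0396) and the 4 h one did not (adjusted p = 0.0966).

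Much of the Fcgr4 difference moved with single HET arrays. With all HET arrays numbered 1 left out, KO minus HET was -0.38, -0.78 (adjusted p = 0.119) and -0.75 (adjusted p = 0.101) in untreated, 2 h and 4 h cells. Without HET 2 h replicate 2 the 2 h difference was -1.58 and passed (adjusted p = 0.00365). Averaged over the 3 times, Fcgr4 stood at 12.50, 11.42 and 11.96 in the HET replicate numbers and 10.996, 10.95 and 11.22 in the KO ones, so that the lowest HET value lay above the highest KO value. This gave a difference of -0.91 with an exact two-sided permutation p of 0.1, the smallest that 3 against 3 allows, and was computed after the data had been seen. The same exact permutation test gave p = 0.2 for Fcgr1, 0.7 for Fcgr2b, 0.4 for Fcgr3 and 0.2 for Fcer1g.

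The other members differed less. Fcgr1 differed by -0.25, -0.36 and -0.23 in untreated, 2 h and 4 h cells (adjusted p = 1, 0.352 and 0.437). Its arrays overlapped at 2 h but not in untreated cells and at 4 h, where 5.27% and 13.8% of all genes were lower in KO without overlap. The margins were narrow, with the highest KO array at 12.375 against 12.384 in untreated cells and 13.23 against 13.26 at 4 h. Without HET replicate 1 these Fcgr1 values were -0.08, -0.19 and -0.12. Fcgr2b differed by 0.12, -0.32 and -0.23 (adjusted p = 1, 0.461 and 0.458), and its arrays overlapped at every time. Without HET replicate 1 the Fcgr2b values were 0.22, -0.10 and -0.06. Fcgr3 differed by -0.14, -0.27 and -0.62 (adjusted p = 1, 0.71 and 0.211), and by -0.03, -0.11 and -0.29 without HET replicate 1. Fcer1g differed by 0.02, -0.09 and -0.06, with 95% intervals inside -0.23 and 0.16 at the 3 times, and by 0.05, -0.10 and -0.03 without HET replicate 1.

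**Figure D3:**
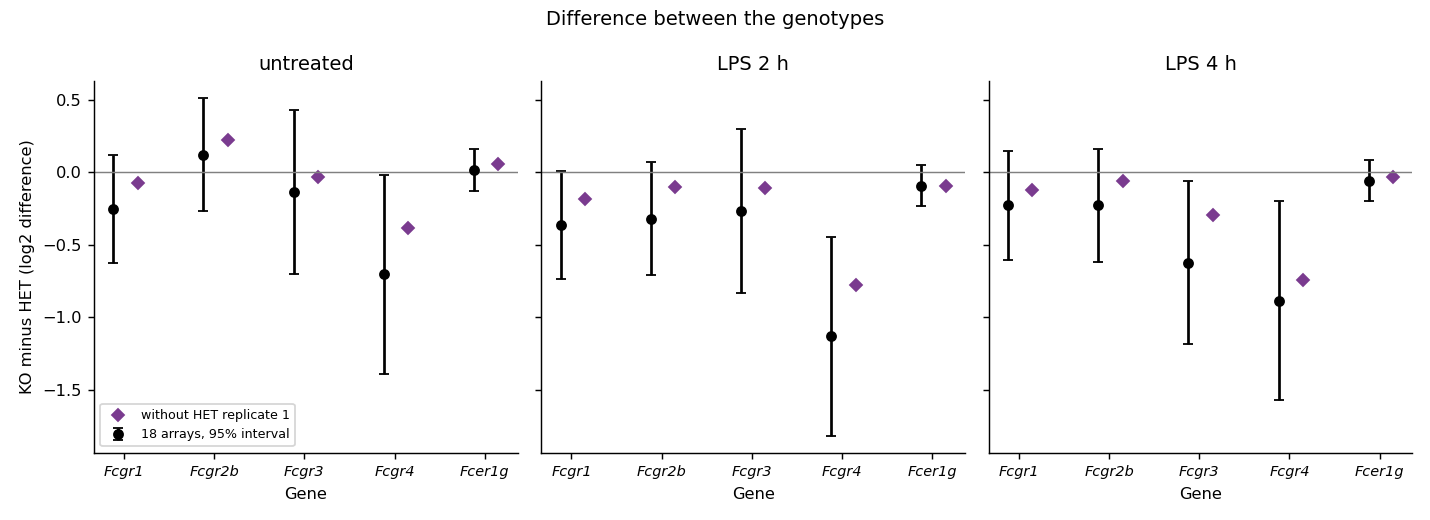
Log2 difference KO minus HET of each gene without LPS (left), at 2 h (middle) and at 4 h (right), with the 95% interval of the fit over 18 arrays in black and the value without HET replicate 1 as a purple diamond. The Fcgr4 intervals lie below 0 at all 3 times before adjustment over genes (upper ends -0.02, -0.44 and -0.20), and the value without HET replicate 1 is nearer to 0.

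The LPS response itself was compared between the genotypes by the interaction term. No member passed, at 2 h or 4 h. At 2 h no gene of the 19475 passed in limma (0% called, 1099 at an unadjusted p under 0.05), and at 4 h 10 did (0.0513%). For Fcgr2b the KO response differed from that of HET by -0.44 at 2 h (95% interval -0.99 to 0.11) and -0.35 at 4 h (-0.90 to 0.20). For Fcgr4 it differed by -0.43 (-1.40 to 0.54) and -0.18 (-1.15 to 0.79). For Fcgr3 it differed by -0.13 (-0.93 to 0.67) and -0.49 (-1.28 to 0.31), and the 4 h value was -0.26 without HET replicate 1. For Fcgr1 the 4 h responses were 0.03 apart (-0.50 to 0.55), a value that was negative without HET replicate 1 (-0.05). For Fcer1g the differences were -0.11 (-0.31 to 0.09) at 2 h and -0.07 (-0.28 to 0.13) at 4 h. Without HET replicate 1 the 2 h and 4 h values were -0.32 and -0.28 for Fcgr2b and -0.40 and -0.36 for Fcgr4. Those of Fcer1g were then -0.15 and -0.09.

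Levels of neutrophils' genes are given here because neutrophils carry Fcgr3 and Fcgr4 as well. The median of the 11 neutrophil markers ranged over 7.95 to 8.88 on untreated HET arrays and 8.17 to 8.65 on untreated KO arrays, 8.69 to 8.83 and 8.50 to 8.72 at 2 h, and 8.78 to 9.12 and 8.65 to 9.03 at 4 h. Of the 11, 3 had a mean below the 40th percentile, among them the defining genes Ly6g at the 20.7th and Cxcr2 at the 10.5th. Others of the list stood higher, with Ngp at the 84.2nd, Csf3r at the 76.2nd, Mmp8 at the 67.6th and Elane at the 66.0th. No neutrophil marker passed between the genotypes, and 3 of the 11 rose in HET and 0 in KO after 4 h of LPS, beside 15.7% and 6.48% of all genes. Without HET replicate 1, 2 also rose in KO, Csf3r by 1.15 and Camp by 0.26 (adjusted p = 8.15e-05 and 0.0298). On the HET arrays numbered 1 the list was higher than on the other HET arrays by a median of 0.46, 0.47 and 0.46. Its part in the Fcgr4 values was not tested.

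The members were set beside all genes of above-median level by Pearson correlation over the 18 arrays, which share genotype, time and replicate number, as a description. Fcgr1 was most like Irf2 (r = 0.986), Tmem140 (0.973) and Slc30a1 (0.958). Fcgr2b was most like Dnaja2 (0.989), Jak2 (0.988) and Dusp16 (0.978), which changed at 4 h in HET by 1.31, 2.59 and 2.68. Fcgr4 was most like Ms4a6d (0.978), Chmp4b (0.968) and Plod3 (0.959). With the HET arrays numbered 1 left out r was 0.9746, 0.973 and 0.960, but 0 of these 3 stayed among its 3 nearest. For Fcgr3 the 3 nearest were Nek6 (0.903), Sh3pxd2b (0.881) and Entpd1 (0.866), and for Fcer1g Ss18l1 (0.825), Cavin3 (0.801) and Gcnt2 (0.763). With the same arrays left out r was 0.772, 0.746 and 0.824 for the Fcgr3 genes, and 0.786, 0.755 and 0.712 for those of Fcer1g. Among the members, Fcgr1 and Fcgr4 were most alike (r = 0.937), although they lie on different chromosomes, and Fcgr2b and Fcgr3 were least alike (r = 0.09). The extracellular parts of the mouse low-affinity receptors are close in sequence, and how far a probe set reads a neighbour's transcript was not tested.

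Kinases and adaptors that act below the activating receptors moved in both directions. Of 26 measured, 6 rose and 2 fell in HET at 2 h, 8 rose and 7 fell in HET at 4 h, 4 rose and 0 fell in KO at 2 h, and 6 rose and 4 fell in KO at 4 h. Of all genes, 5.56% and 15.7% rose in HET at 2 h and 4 h, and 2% and 6.48% in KO. The shares that fell were 10% and 20.7% in HET, and 1.35% and 9.28% in KO. Syk, the kinase that docks on the Fcer1g ITAM, rose by 0.98 ± 0.113 in HET (adjusted p = 2.49e-05) and 0.74 ± 0.113 in KO (adjusted p = 0.001) at 2 h. The adaptor Lcp2 (SLP-76) rose at 4 h by 1.11 in HET and 1.03 in KO, and the kinase Prkcd by 0.71 in KO. The adaptor Lat2 fell at 4 h by 1.33 in HET and 0.82 in KO. Plcg1, a phospholipase upstream of calcium release, fell by 1.03 in HET (adjusted p = 1.6e-05), while its KO change was -0.34 (adjusted p = 0.0898).

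Between the genotypes 1, 1 and 3 of the 26 were called in untreated, 2 h and 4 h cells. Of all genes, 0.416%, 2.76% and 2.42% were called. Plcg1 differed by -0.91 ± 0.126 in untreated cells (adjusted p = 0.00294) and the kinase subunit Pik3cd by -0.82 ± 0.173 at 4 h (adjusted p = 0.0226), lower in KO, and both passed also without HET replicate 1. Lcp2 differed by -0.41 at 2 h, and at 4 h Vav2 was higher by 0.64 and Lat2 by 0.45 (adjusted p = 0.028, 0.0468 and 0.0411). Without HET replicate 1 these last values had adjusted p = 0.075, 0.0685 and 0.0509.

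**Figure D4:**
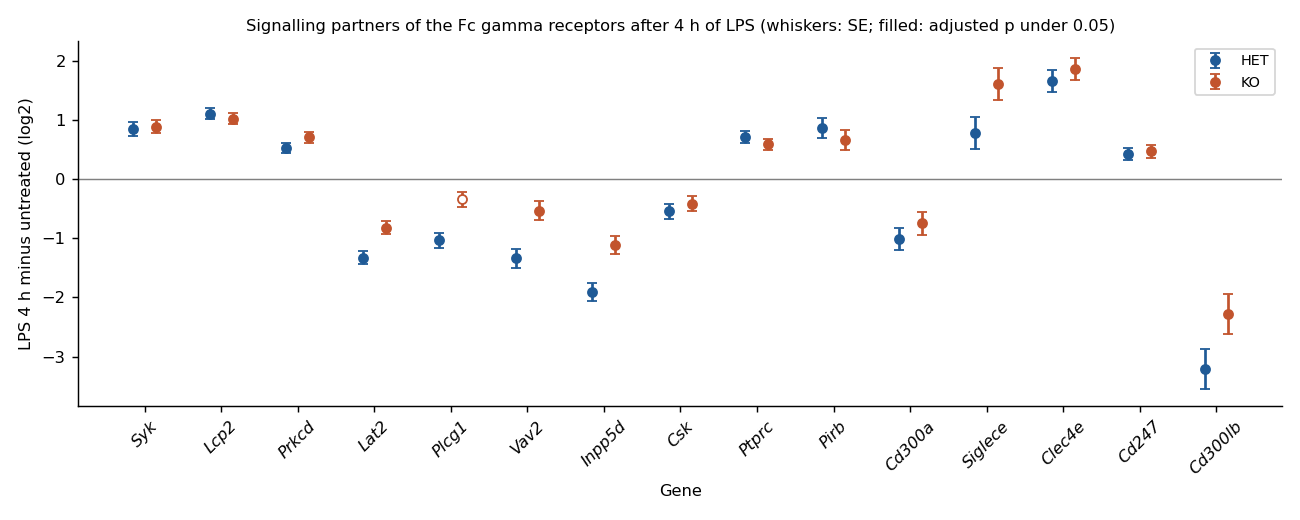
Log2 change at 4 h of LPS in HET (blue) and KO (orange) of 15 signalling partners of the receptors, picked from the lists for display after their values were known, with the SE as whiskers and filled points for adjusted p under 0.05. Syk, Lcp2 and Prkcd lie above 0 and Lat2, Inpp5d and Csk below 0 in both genotypes, and the open point is Plcg1 in KO.

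Among the genes listed here as negative regulators of Fc receptor signalling, 1 of 15 rose and 5 fell in HET at both 2 h and 4 h. Of all genes, 5.56% rose and 10% fell in HET at 2 h, and 15.7% rose and 20.7% fell at 4 h. In KO 0 of the 15 were called at 2 h, where 2 fell without HET replicate 1, and 1 rose and 2 fell at 4 h, beside 6.48% and 9.28% of all genes. Inpp5d, the phosphatase that Fcgr2b recruits, fell at 4 h by 1.91 ± 0.155 in HET (adjusted p = 3.54e-07) and by 1.11 ± 0.155 in KO (adjusted p = 0.000115). It was higher in KO than in HET at 4 h by 0.65 ± 0.155 (adjusted p = 0.0404, 0.0734 with the block for genotype and number, and 0.035 without HET replicate 1). Csk, which holds Src kinases inactive, fell by 0.54 in HET and 0.41 in KO. The list also counts the phosphatase Ptprc (CD45), which rose by 0.72 in HET and 0.59 in KO. Whether Ptprc acts as a brake in these cells was not tested. Ubash3b, a phosphatase that acts on Syk, differed by -0.55 at 4 h, lower in KO (adjusted p = 0.0468), but not past the test without HET replicate 1 (adjusted p = 0.0991).

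Other inhibitory receptors with an ITIM moved in both directions. Of 14 measured, 5 rose and 3 fell in HET at 4 h, beside 15.7% and 20.7% of all genes. In KO 4 rose and 1 fell, beside 6.48% and 9.28%. Pirb rose by 0.87 in HET (adjusted p = 0.000724) and 0.66 in KO (adjusted p = 0.0113), and Siglece, which binds sialic acid, rose by 1.61 in KO (adjusted p = 0.000624). Cd300a fell by 1.01 in HET and 0.75 in KO. None of the 14 passed between the genotypes.

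Among the other ITAM adaptors and the receptors that pair with them, 3 of 13 rose and 2 fell in HET at 4 h, and 4 rose and 2 fell in KO, against the same shares of all genes (15.7% and 20.7% in HET, 6.48% and 9.28% in KO). Clec4e (Mincle), which also signals through Fcer1g, rose at 4 h by 1.66 ± 0.186 in HET (adjusted p = 7.19e-06) and 1.87 ± 0.186 in KO (adjusted p = 4.92e-06). Cd300lb fell by 3.22 and 2.29. Tyrobp (DAP12), another ITAM adaptor, differed by -0.15 in HET (adjusted p = 0.213) and -0.08 in KO (adjusted p = 0.667). None of the 13 passed between the genotypes.

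Transcription factors and signals known to act on these receptor genes moved in both directions. Of 24 measured, 9 rose and 2 fell in HET at 2 h, 7 and 2 in KO at 2 h, 10 and 5 in HET at 4 h, and 11 and 4 in KO at 4 h. Of all genes, 5.56% rose and 10% fell in HET and 2% and 1.35% in KO at 2 h, and 15.7% and 20.7% in HET and 6.48% and 9.28% in KO at 4 h. Irf1, an interferon-response factor, rose at 2 h by 2.91 ± 0.231 in HET (adjusted p = 6.42e-07) and 2.40 ± 0.231 in KO (adjusted p = 1.1e-05). Socs3, a brake on cytokine signalling, rose at 2 h by 4.62 in HET and 4.17 in KO. C5ar2, a receptor for complement C5a, fell at 4 h by 2.19 in HET and 2.06 in KO. Spi1, which encodes PU.1, changed by 0.24 in HET (adjusted p = 0.0723) and rose by 0.38 in KO (adjusted p = 0.0157) at 4 h.

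Between the genotypes, 2 calls fell on these 24 factors. Of all genes, 0.416%, 2.76% and 2.42% were called in untreated, 2 h and 4 h cells. Socs1, a further brake, differed by -1.62 ± 0.268 at 2 h, lower in KO (adjusted p = 0.00588, and 0.0139 without HET replicate 1). Ifngr1, the interferon gamma receptor chain that binds the ligand, was higher in KO at 4 h by 0.51 ± 0.0949 (adjusted p = 0.0101, and 0.022 without HET replicate 1). Irf1 differed by -0.90 ± 0.231 at 2 h (adjusted p = 0.0506, and 0.0185 with the block for genotype and number), and by -0.71 without HET replicate 1 (adjusted p = 0.12). Irf8, a macrophage lineage factor, differed by -0.91 ± 0.404 at 4 h (adjusted p = 0.223), and by -0.66 without HET replicate 1 (adjusted p = 0.345).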

How the data were processed

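RNA was hybridised to Affymetrix arrays, 18 in all. The authors' deposited log2 values per probe set were made with RMA in Partek 6.5, per the submitters' processing notes. The sources used here do not state the genome build or a filter on probe sets. The values were analysed without further scaling. Of 25344 probe sets, 21137 had a single gene in the platform annotation and gave 19475 genes. For 915 genes with several, the probe set of highest mean was used. 1530 probe sets with several genes and 2677 with none were left out.

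limma 3.58.1 (R 4.3.3) estimated a mean per group for every gene, with 12 residual and 3.17 prior degrees of freedom and a prior SD of 0.144. Calls needed a Benjamini-Hochberg adjusted p below 0.05. Intervals are 95%. The fit was tested on simulated data. Tables and figures used Python 3.11.15 and matplotlib 3.10.9. The members and the gene lists were chosen with earlier results of these data known, and the lists are described by counts, with no test.

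Named were all 5 members, Wbp7, up to 4 called and 2 other genes of each list and comparison (those with the smallest adjusted p and the highest level), and the 3 genes most like each member among 9736. Irf1 and Irf8 between genotypes, and the displayed partners, were added after their values were seen.

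Alternatives were centring on array medians, quantile normalization, leaving out genes below the 40th percentile, averaging probe sets per gene, a robust prior with an intensity trend, array weights, the arrays of a contrast alone, a 2-fold minimum, each array left out, and HET replicate 1 left out at all times. The replicate number also entered as a block, either across genotypes or inside each genotype. Inside each genotype the block was a correlation (0.398) for KO minus HET. For LPS changes and the differences in response it was a fixed term for each genotype and number. Deviations from group means correlated at 0.32 to 0.80 in the 18 pairs of arrays that share genotype and number, and at -0.353 to 0.39 in the 27 that share only the number. These correlations ran from -0.687 to 0.287 in the 36 pairs that share only the genotype. In the 54 that share neither they ran from -0.514 to 0.574, so some arrays of different genotype and number also deviated together. Within a genotype the numbers therefore pair arrays, which the labels do not state. Promoter windows came from RefSeq's tables for GRCm38.p6.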

Additional observations from a re-analysis of the deposited data

How the results depend on the processing

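Of the results on single members under all alternatives, 934 kept direction and side of the threshold, 17 lost and 11 gained a call, and 33 changed sign. The 3 calls at 4 h against untreated cells held in each genotype under every alternative but the 2-fold minimum, which Fcgr1 did not reach. The count of members called between the genotypes at 2 h was 1 (Fcgr4) under either replicate block, and 0 to 1 with single arrays left out. The blocked fit by genotype and number also added Fcgr3 at 4 h in KO and Fcgr2b from 2 h to 4 h in each genotype, and changed no other call. At 2 h of LPS the count in HET ran from 1 to 2 and in KO from 0 to 1 with single arrays left out, and was 0 in KO at a 2-fold minimum. From 2 h to 4 h in HET it was 0 with the arrays of the contrast alone, 1 at a 2-fold minimum and 1 to 3 with single arrays left out; in KO it was 1 at a 2-fold minimum and 1 to 2 with single arrays left out. Fcgr2b from 2 h to 4 h in KO also gained a call with array weights, with the arrays of the contrast alone and without HET replicate 1 (adjusted p = 0.0473, 0.0421 and 0.0226).

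Every sign change was of a value that had not passed. Under quantile normalization Fcer1g differed between genotypes by 0.0009 at 2 h and 0.0100 at 4 h, and changed after LPS by -0.0359 (2 h, HET), -0.0077 (4 h, HET) and -0.0314 (4 h, KO), Fcgr4 changed by 0.0087 at 2 h in KO, and Fcgr3 by -0.0998 at 4 h in HET. Array weights gave -0.1697 for that Fcgr3 value, 0.1622 for the Fcgr3 difference in the 2 h response and -0.0021 for the Fcgr1 difference in the 4 h response. Without HET replicate 1 at all times the last was -0.0474 and Fcgr3 at 4 h in HET -0.1494. With single arrays left out, Fcgr1 ranged from -0.256 to 0.098 at 2 h in HET, and its difference in response from -0.2869 to 0.0671 at 2 h and -0.1516 to 0.1408 at 4 h. Fcgr3 ranged from -0.2569 to 0.3122 at 4 h in HET, from -0.1384 to 0.4307 and -0.3214 to 0.0249 between 2 h and 4 h in HET and KO, and from -0.2658 to 0.0298 for the 2 h difference in response. Fcgr4 ranged from -0.0964 to 0.0739 at 2 h in KO and from -0.5025 to 0.0819 for the 4 h difference in response, and Fcer1g from -0.0048 to 0.0544 between untreated genotypes. The cause was not tested.

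Of the 3 genes most like each member, Spearman ranks kept 1 for Fcgr1, 2 for Fcgr2b and 0 for the others, and the 15 arrays without HET replicate 1 kept 1, 2, 0, 0 and 1 for Fcgr1, Fcgr2b, Fcgr3, Fcgr4 and Fcer1g. Counts over all genes also moved, here over the alternatives without single arrays left out. Genes called between genotypes ranged from 20 to 189, 31 to 890 and 42 to 1274 in untreated, 2 h and 4 h cells. Those called after LPS ranged from 782 to 5411 and 279 to 2237 at 2 h in HET and KO, 1832 to 10719 and 905 to 5575 at 4 h, and 102 to 3650 and 268 to 2973 from 2 h to 4 h. Those of the difference in response ranged from 0 to 31 at 2 h and 5 to 115 at 4 h. Centring on array medians moved the share of higher calls from 44.1% to 27.3% between genotypes at 2 h, where quantile normalization gave 33.4%, and from 61.4% to 72.4% from 2 h to 4 h in KO.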

Other observations

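Of 13 other immunoglobulin Fc receptors measured, 2 rose and 0 fell in HET at 2 h, and 3 rose and 0 fell at 4 h. In KO 1 rose and 0 fell at each time. Of all genes, 5.56% rose and 10% fell in HET at 2 h, and 15.7% and 20.7% at 4 h. In KO the shares were 2% and 1.35% at 2 h, and 6.48% and 9.28% at 4 h. Of the 13, 9 had a mean level below the 40th percentile, where a fall is hard to see. Trim21, the cytosolic antibody receptor, rose by 1.95 ± 0.202 at 2 h and 2.42 ± 0.202 at 4 h in HET (adjusted p = 1.01e-05 and 4.8e-07) and by 1.38 and 2.55 in KO (adjusted p = 0.000666 and 5.31e-07). KO minus HET was -1.03 ± 0.202 at 2 h (adjusted p = 0.0162, and 0.0509 without HET replicate 1). Fcrlb, an intracellular Fc receptor-like protein, rose at 4 h by 1.71 in HET (adjusted p = 0.000849), and its KO change was 0.93 (adjusted p = 0.0711).

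Genes of the actin and membrane machinery of phagocytosis fell more often than they rose in HET at 4 h: 10 of 23 fell and 3 rose, beside 20.7% and 15.7% of all genes. In KO 3 fell and 2 rose, beside 9.28% and 6.48%, and 8 fell and 3 rose without HET replicate 1. Dnm2, the dynamin that pinches off vesicles, fell by 0.43 in HET (adjusted p = 0.000146) and 0.35 in KO (adjusted p = 0.00162). Marcks and Marcksl1, which tie actin to the membrane, rose at 4 h by 1.15 and 1.95 in HET and 1.16 and 2.22 in KO. For Marcks KO minus HET was -0.62 ± 0.153 at 2 h (adjusted p = 0.042, and 0.0765 without HET replicate 1).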
